A study of Mus musculus with 12 samples.

Results

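A small group of mature miRs reaches Dicer by a route that leaves out part of the usual pathway, and 8 of them from 6 genes were followed here in fetal mouse liver. They were chosen by name from the 1927 mature miR entries of the count table, as the capped miRs mmu-miR-320-3p and mmu-miR-484, whose precursor starts at the start of transcription, the mirtron products mmu-miR-877-5p, mmu-miR-877-3p and mmu-miR-702-3p, and the snoRNA-derived mmu-miR-1839-5p, mmu-miR-1839-3p and mmu-miR-664-3p. No measured value entered the rule of choice, although earlier results of these data were known when it was made. The opposite arms *miR-320-5p*, *miR-702-5p* and *miR-664-5p* were read beside them.

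The livers came from female fetuses at E18.5, of which 5 were wild-type (WT) and 7 were Mir483Pat-KO littermates, with 1 small RNA library per fetus. Mir483Pat-KO fetuses inherited from the father a constitutive deletion of *Mir483*, the imprinted miR gene inside *Igf2*, and kept an intact maternal copy. The deletion was made in targeted C57BL/6N ES cells, from which transient expression of Cre removed the selection marker. From these, 2 ES cell clones were injected, and the colony was kept by crossing to C57BL/6J. Which clone each fetus descends from is not given in the labels.

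In the canonical pathway, Drosha and DGCR8 cut a hairpin out of a long primary transcript, Exportin-5 carries it to the cytoplasm, and Dicer trims it to a duplex from which 1 strand is loaded into Argonaute. The capped miRs skip Drosha because RNA polymerase II begins and ends so close to the hairpin that the transcript itself, with its cap, is the precursor. Such capped precursors leave the nucleus through Exportin-1, and for *miR-320* the cap disfavours loading of the 5p strand. Mirtrons skip Drosha because the spliceosome cuts out a short intron that folds into the hairpin once debranched. Some small nucleolar and Cajal body RNAs, which guide chemical modification of other RNAs, also hold hairpins that Dicer can process into miRs.

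The mirtron positions can be set against the splice sites that their route uses, while those of the other hairpins give only what lies around them. The route itself was not tested in these libraries. In the GENCODE annotation of GRCm38, *Mir877* (chr17:35960730-35960814, minus strand) fills an intron of *Abcf1*, a gene for a translation factor, from its first base to its last, over 85 bases. *Mir702* (chr5:136991433-136991541, plus strand) has 100 of its 109 bases in an intron of 102 bases (136991442 to 136991543) of *Plod3*, which encodes a collagen-modifying enzyme. *miR-702-5p* and *miR-877-5p* both start at the first base of their introns, and *miR-702-3p* and *miR-877-3p* end 2 bases and 1 base before the intron ends. *Mir320* (chr14:70443510-70443591, plus strand) overlaps no other annotated gene and is 62 bases from the start of *Polr3d*, an RNA polymerase III subunit gene on the opposite strand. *Mir484* (chr16:14159626-14159692, plus strand) is inside *Marf1*, which runs the other way, and 3582 bases before *Nde1*.

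Both snoRNA-derived hairpins lie across the end of an annotated small RNA. *Mir1839* (chr7:81529916-81529988, plus strand) shares 66 of its 73 bases with a scaRNA (a Cajal body RNA) of 127 bases, and both sit in an intron of the non-coding *2900076A07Rik*. *miR-1839-5p* covers bases 65 to 86 of that scaRNA. *Mir664* (chr1:185242975-185243043, plus strand) shares 64 of its 69 bases with the snoRNA *Snora36b* in an intron of *Rab3gap2*. All 22 bases of *miR-664-3p* lie inside *Snora36b*, ending 5 bases before its 3′ end. Reads from these miRs and from other fragments of the same small RNAs cannot be told apart in a table of counts.

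The reference hairpins of the mirtrons are printed from RefSeq (GRCm38.p6) because the splice sites are part of them. Capitals mark the first 2 and the last 2 bases of the intron where these lie in the hairpin, which for *Mir702* is only the start.
Mir877: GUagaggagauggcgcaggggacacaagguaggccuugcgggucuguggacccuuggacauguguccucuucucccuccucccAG
Mir702: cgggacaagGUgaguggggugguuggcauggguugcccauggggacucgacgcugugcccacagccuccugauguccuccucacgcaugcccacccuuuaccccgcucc

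The next 3 hairpins show in capitals the member for which RefSeq gave a sequence. For *Mir484* it is the only annotated mature miR, and for *Mir1839* and *Mir664* it is the arm with more reads.
Mir484: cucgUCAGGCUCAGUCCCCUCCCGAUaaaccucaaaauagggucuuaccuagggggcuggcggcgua
Mir1839: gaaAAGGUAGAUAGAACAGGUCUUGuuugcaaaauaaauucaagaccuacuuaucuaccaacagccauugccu
Mir664: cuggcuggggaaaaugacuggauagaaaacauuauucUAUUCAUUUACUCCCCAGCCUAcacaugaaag

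RefSeq gave a mature sequence for 6 of the 8 members, shown here with the seed (bases 2 to 8, which pair with targets) in capitals, because miRs with the same seed pair with much the same targets.
miR-484: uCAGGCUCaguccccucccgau
miR-877-5p: gUAGAGGAgauggcgcaggg
miR-877-3p: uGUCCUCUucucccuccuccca
miR-702-3p: uGCCCACCcuuuaccccgcucc
miR-1839-5p: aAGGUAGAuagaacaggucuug
miR-664-3p: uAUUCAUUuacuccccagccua
None of these 6 seeds is shared with another of the 1679 mature miRs in the RefSeq table. The seed of *miR-702-5p*, UGAGUGG, is shared with *miR-3102-5p*, another mirtron product, and neither of these had a read in any library.

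The mirtron arms lay near the ends of the range of composition. Of the 22 bases of *miR-877-3p*, 20 are C or U (90.9%), a share reached by 0.282% of the 354 mature miRs with a sequence among those tested, whose median is 52.4%. *miR-702-3p* has 18 of 22 (81.8%), a share reached by 2.26%. Both lie over the pyrimidine-rich stretch that precedes the end of an intron. *miR-877-5p* begins with GU, the splice donor, as do 9 of the 354 (2.54%), and 4 of its 20 bases are C or U (99.7% of those tested have at least that share).

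The 5 WT libraries held 711810 to 1211160 counts and the 7 Mir483Pat-KO libraries 658665 to 921068. A floor of 3 counts came to 2.48 to 4.55 CPM (counts scaled to a common library total). The deleted *miR-483-3p* had 733 to 1281 reads in WT libraries and 0 to 19 in Mir483Pat-KO, and *miR-483-5p* had 245 to 371 and 0 to 4, which follows the labels. The hepatocyte miR *miR-122-5p* made up 11.8% to 16.5% of each library, the erythroid *miR-451a* 0.691% to 1.03% and the white blood cell *miR-142a-3p* 0.145% to 0.204%. Neural *miR-124-3p* was at 0 in all libraries and the muscle *miR-1a-3p*, *miR-133a-3p* and *miR-206-3p* had at most 14 reads, while neural *miR-9-5p* had 14 to 356 reads and endocrine *miR-375-3p* 104 to 229. In whole liver, fewer cells of a type and less of a miR per cell cannot be told apart.

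All 8 members were detected and passed the filter on low counts, together with 380 other miRs (388 tested). They took 0.138% to 0.214% of the counts of a library. The capped miRs held most of these reads, 71.5% to 76.7%, the snoRNA-derived miRs 19.9% to 23.0%, and the mirtrons 1.81% to 6.49%. Levels below are CPM after TMM scaling, a correction for composition, and a read stands for 1 short RNA whatever its length. Adapter ligation favours some ends over others, so a ratio between miRs is a ratio of reads.

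*miR-320-3p*, known to repress the phosphofructokinase gene of muscle, was the most abundant member. The 5 WT libraries held 850.3, 996.1, 744.1, 761.1 and 897.2 CPM, and the 7 Mir483Pat-KO libraries lay between 647.3 and 903.0 CPM with a median of 758.1. The groups overlapped over most of their range. It ranked 78th of the 388 miRs by mean CPM, next to *miR-186-5p* (835.8 CPM) and *miR-495-3p* (799.6 CPM).

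*miR-484*, which is often used as a reference in serum because it is steady there, came second. WT libraries held 512.7, 560.4, 491.6, 499.2 and 427.98 CPM, and Mir483Pat-KO libraries lay between 336.9 and 502.8 CPM with a median of 429.5. The highest Mir483Pat-KO library stood among the WT libraries, and the lowest WT library stood below 4 of the 7 Mir483Pat-KO libraries. It ranked 109th, with *miR-483-3p* above it, whose mean of 455.2 CPM averages WT and Mir483Pat-KO libraries, and *miR-134-5p* (441.9 CPM) below.

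*miR-1839-5p*, from the scaRNA hairpin, came after them. WT libraries held 325.5, 348.2, 303.6, 282.2 and 297.1 CPM, and Mir483Pat-KO libraries lay between 259.2 and 342.9 CPM with a median of 282.8. It ranked 133rd, between *miR-335-5p* (312.4 CPM) and *miR-379-3p* (295.3 CPM). The groups overlapped here too.

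**Figure D1:**
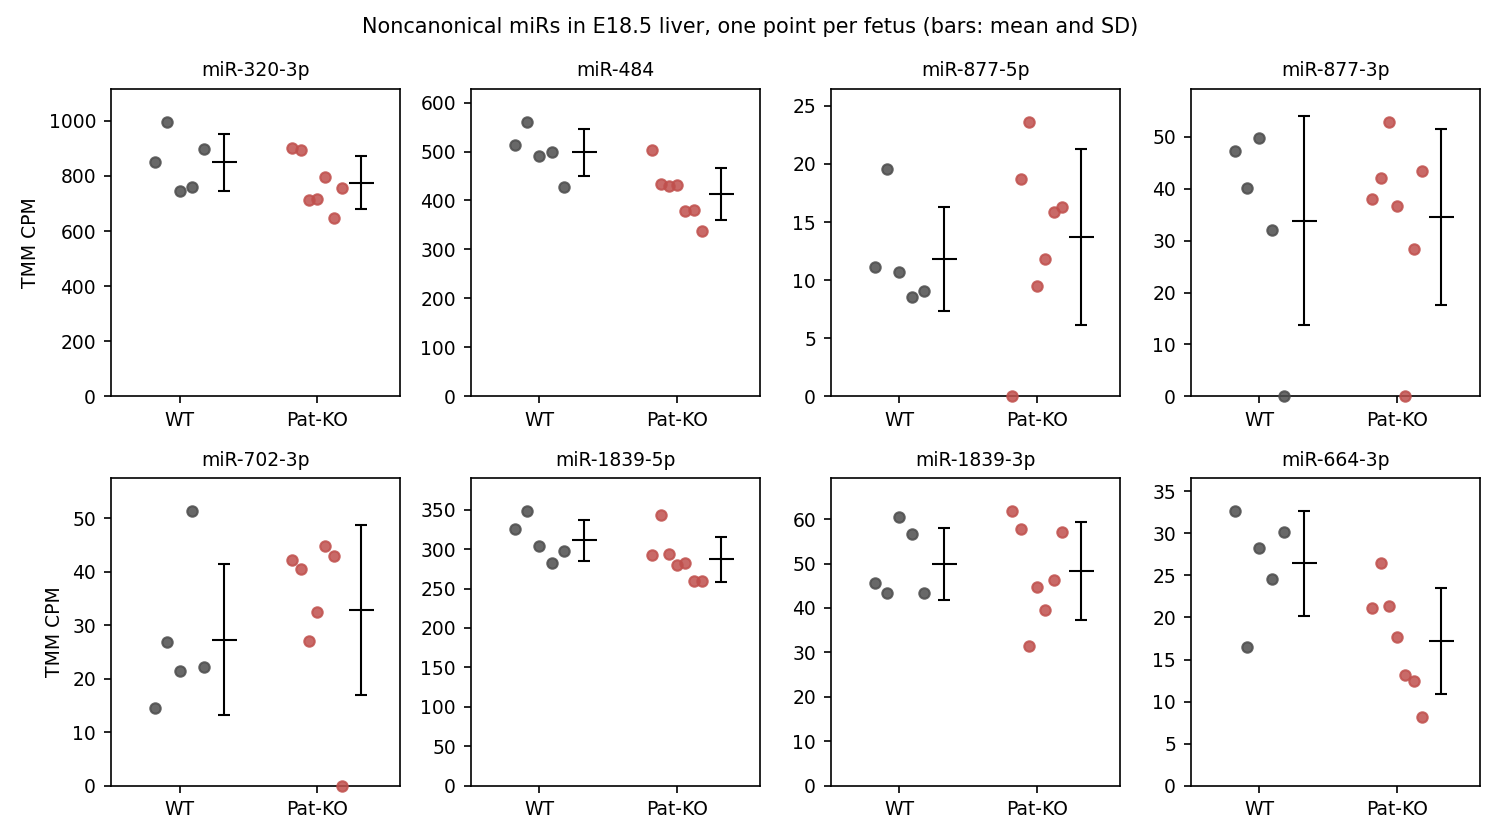
Level of each of the 8 noncanonical miRs (y axis, TMM CPM, from 0) in each of 5 WT and 7 Mir483Pat-KO fetuses (points, in the order of the labels), with the mean and SD of each genotype (bars). The genotypes overlap for all 8 miRs, and single libraries of miR-877-5p, miR-877-3p and miR-702-3p stand at 0.

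The order of these abundant members held in every fetus. *miR-320-3p* exceeded *miR-484* in 12 of 12 libraries, by 1.51-fold to 2.25-fold, and *miR-484* exceeded *miR-1839-5p* in 12 of 12, by 1.26-fold to 1.77-fold. *miR-1839-5p* was 4.55-fold to 9.32-fold above *miR-1839-3p*, which held 43.3 to 60.4 CPM in WT libraries and 31.5 to 61.8 CPM in Mir483Pat-KO libraries. The remaining members did not separate. *miR-877-3p* was above *miR-702-3p* in 7 of 12 libraries, *miR-702-3p* above *miR-664-3p* in 8 and *miR-664-3p* above *miR-877-5p* in 8.

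The mirtrons were scarce. *miR-702-3p* had 17, 26, 16, 48 and 22 reads in WT and a median of 26 reads in Mir483Pat-KO, with 0 in Mir483Pat-KO replicate 7 and 24 to 38 in the other 6. *miR-877-3p* had 55, 39, 37 and 30 reads in WT replicates 1 to 4 and 0 in replicate 5, and in Mir483Pat-KO it had 0 in replicate 5 and 25 to 47 in the other 6. *miR-877-5p* had 8 to 19 reads in WT and 0 to 21 in Mir483Pat-KO.

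The libraries at 0 stood far below what their neighbours held. From the other libraries of the genotype and the total counts, *miR-877-3p* would have had 39.8 reads in WT replicate 5 and 31.1 in Mir483Pat-KO replicate 5, and *miR-702-3p* 27.6 in Mir483Pat-KO replicate 7. Of the 1077 entries of the whole table for which 20 to 60 reads would be reckoned in the same way, 17 were at 0 (1.58%), from 8 miRs, and 3 of these 17 were the mirtron entries just named. The partner arm was present in both libraries without *miR-877-3p*, with 9 reads of *miR-877-5p* in each. Values with and without such libraries are given where they differ.

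In the 5 hairpins with a pair of annotated arms the reads were divided unequally. The favoured arm was 3p in both mirtron hairpins and differed between the snoRNA-derived hairpins. *miR-320-5p* had no read in any library against 8228 of *miR-320-3p*, which allows a 5p share of up to 0.0365%. *miR-702-5p*, which starts at the splice donor, had none against 305 of *miR-702-3p*, which allows up to 0.984%. Such limits cover counting error only, since reads copied by PCR are not independent molecules. *Mir484* has 1 annotated mature miR, from the 5′ side of its hairpin. Reads of its other strand would not be listed, so its strand choice cannot be read from the counts.

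Both strands of the *Abcf1* mirtron were read. Over all libraries *miR-877-5p* took 132 of 478 reads (27.6%). In single libraries its share ran from 0% to 100%, the ends being libraries with an arm at 0. In the 9 libraries with reads of both arms, *miR-877-3p* was the higher in 9, by 1.79-fold to 4.62-fold with a median of 2.67. These ratios were 2.05 to 4.62 in 4 WT libraries and 1.79 to 3.86 in 5 Mir483Pat-KO libraries.

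The 2 snoRNA-derived hairpins went opposite ways. *miR-1839-5p* took 3032 of 3523 reads (86.1%, and 82.0% to 90.3% in single libraries) and was the higher arm in 12 of 12 libraries. Its share averaged 86.1% ± 2.62 (SD, n = 5) over WT fetuses and 85.6% ± 2.90 (SD, n = 7) over Mir483Pat-KO fetuses. *miR-664-5p*, which did not pass the filter, took 65 of 284 reads of its hairpin (22.9%) and was below *miR-664-3p* in every library. Its summed share was 15.2% over WT libraries and 31.6% over Mir483Pat-KO libraries, and it ran from 0% to 42.1% in single libraries.

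**Figure D2:**
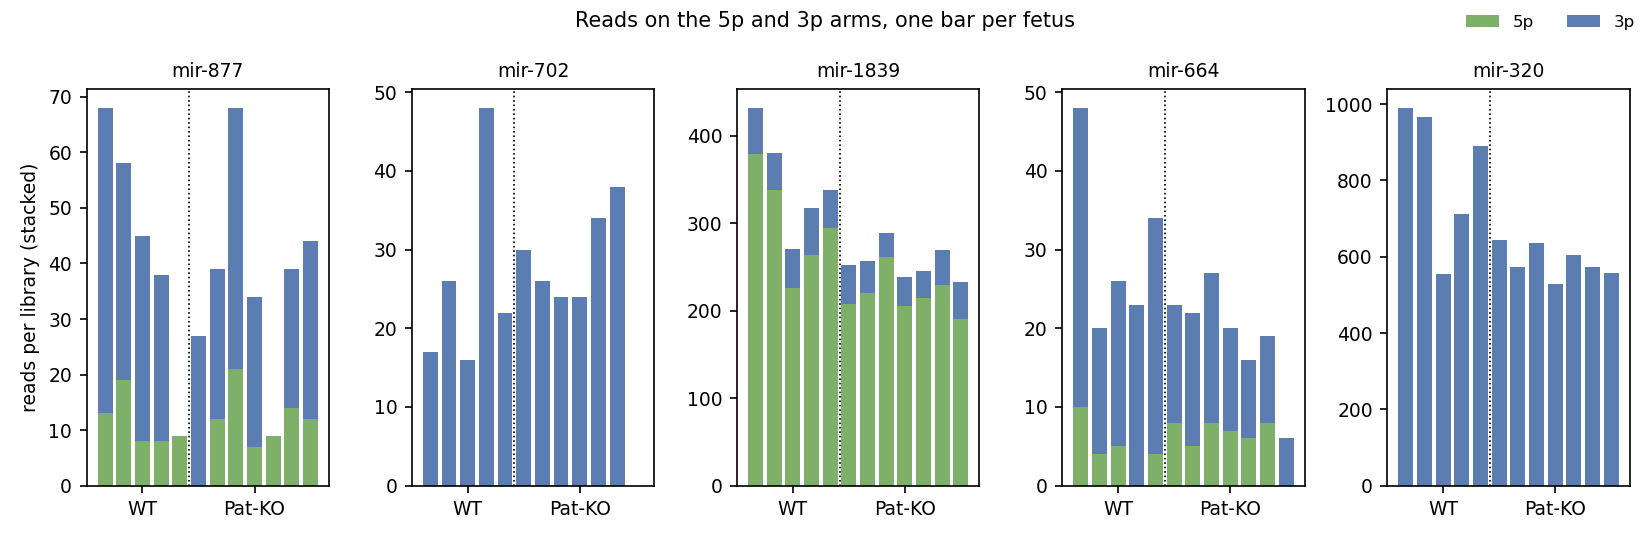
Reads (y axis, counts per library, from 0) on the 5p and 3p arms of 5 hairpins, stacked, with a bar for each of 5 WT and 7 Mir483Pat-KO libraries on either side of the dotted line. miR-320-5p and miR-702-5p have no reads, mir-1839 is mostly 5p (86.1%), and mir-877 (27.6% 5p) and mir-664 (22.9% 5p) are mostly 3p.

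Whether the deletion of *Mir483* shifted strand choice was tested on the log2 ratio of 5p to 3p reads, over the 89 hairpins with a mean of at least 10 reads on each arm, by limma with Benjamini-Hochberg adjustment. Of the 89, 2.25% were called, and neither member hairpin among them was. For *Mir1839* the mean ratio was 2.64 ± 0.31 for WT (SD, n = 5), 2.58 ± 0.35 for Mir483Pat-KO (SD, n = 7), which differ by -0.060 (95% interval -0.47 to 0.35, limma adjusted p = 0.899). For *Mir877* the difference was -0.57 (95% interval -3.89 to 2.76, limma adjusted p = 0.872). Its ratio varied most of all 89 hairpins within genotype, and the 3 libraries with an arm at 0 are among its values.

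No member was called different between genotypes, which took an adjusted p under 0.05 in the quasi-likelihood F-test of edgeR over all miRs, against 2.06% of all 388 miRs tested. DESeq2 called 1, *miR-484*, and 26 miRs in all among the 388. It gave no adjusted p to some of the 388, among them *miR-664-3p*, *miR-1839-3p* and the mirtron products, so these could not be called. At an unadjusted p under 0.05 there were 2 of 8 by edgeR, *miR-484* and *miR-664-3p*, against 17.5% of all tested. By log2 fold change 5 of the 8 were lower in Mir483Pat-KO and 3 higher (49.7% of all tested were lower), with a median of -0.082 over the members and 0.0028 over all tested. For none of the 8 did the genotypes separate without overlap, which 2.84% of all tested did.

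Among the capped miRs, *miR-484* averaged 498.4 ± 47.6 CPM over WT fetuses (SD, n = 5), against 413.5 ± 53.3 CPM over Mir483Pat-KO fetuses (SD, n = 7). The difference came to -0.27 on the log2 scale (95% interval -0.47 to -0.073, edgeR adjusted p = 0.144). It was called by DESeq2's Wald test (log2 fold change -0.28, adjusted p = 0.0373) and by edgeR without Mir483Pat-KO replicate 1 (log2 fold change -0.34, edgeR adjusted p = 0.0455). Over the other alternatives its adjusted p reached 0.980. *miR-320-3p* averaged 849.8 ± 103.3 CPM (SD, n = 5) against 775.4 ± 95.6 CPM (SD, n = 7), with a log2 fold change of -0.13 (95% interval -0.34 to 0.067, edgeR adjusted p = 0.511).

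Of the snoRNA-derived miRs, *miR-664-3p* had the largest difference of any member. WT libraries held 32.6, 16.5, 28.2, 24.6 and 30.2 CPM, and Mir483Pat-KO libraries lay between 8.15 and 26.5 CPM with a median of 17.6. Of the WT libraries 3 stood above every Mir483Pat-KO library and the other 2 within their range. The log2 fold change was -0.63 (95% interval -1.22 to -0.032, edgeR adjusted p = 0.253), on a mean of 18.2 reads per library. *miR-1839-5p* differed by -0.12 (95% interval -0.29 to 0.054) and *miR-1839-3p* by -0.044 (95% interval -0.42 to 0.33), with edgeR adjusted p of 0.487 and 0.936.

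The mirtrons had the widest intervals. *miR-702-3p* had a log2 fold change of 0.27 (95% interval -0.73 to 1.28, edgeR adjusted p = 0.836), *miR-877-5p* of 0.22 (95% interval -0.80 to 1.24, edgeR adjusted p = 0.859) and *miR-877-3p* of 0.033 (95% interval -1.23 to 1.29, edgeR adjusted p = 0.991). Without the libraries at 0, an alternative chosen after the data were seen, these became 0.48 (95% interval -0.12 to 1.09), 0.42 (95% interval -0.27 to 1.10) and -0.074 (95% interval -0.50 to 0.35), and none was called.

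**Figure D3:**
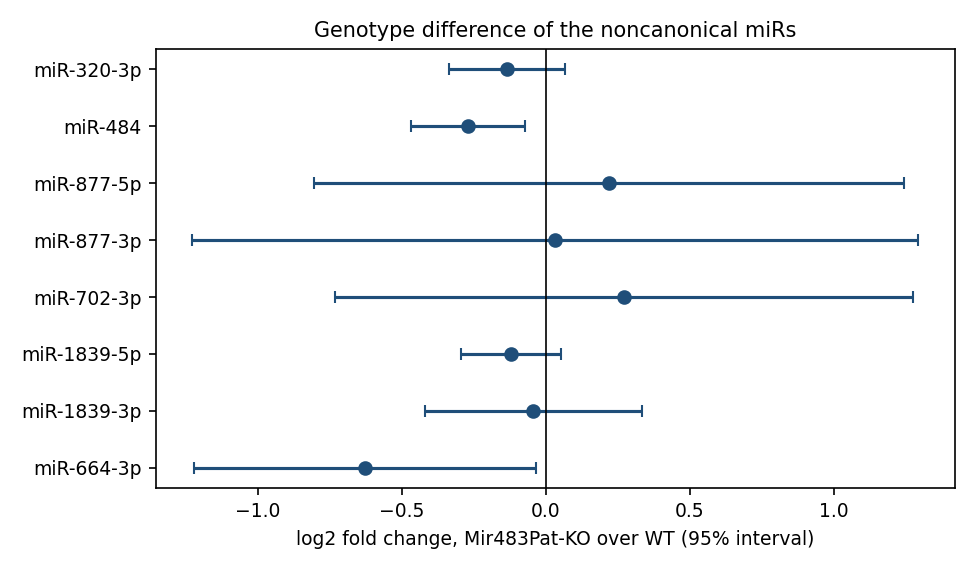
Log2 fold change of each noncanonical miR, Mir483Pat-KO over WT (x axis), by edgeR with its 95% interval (bars), from 5 and 7 libraries. The intervals of miR-484 (-0.47 to -0.073) and miR-664-3p (-1.22 to -0.032) lie below 0 before adjustment for 388 tests, and those of the 3 mirtron products are the widest.

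The genotype and the order of the library indices cannot be told apart between groups, since WT libraries carry indices 37 to 41 and Mir483Pat-KO libraries 42 to 48. When a linear term for the index was added, the log2 fold changes turned to 0.19 for *miR-484*, 0.14 for *miR-320-3p*, 0.19 for *miR-1839-5p* and 0.22 for *miR-664-3p*, none of them called. The labels also carry a number for each library, and what it stands for is not given. Split at a gap in these numbers, a choice made here, 4 WT and 4 Mir483Pat-KO fetuses fall in a lower range. Within it *miR-484* differed by -0.22 (95% interval -0.40 to -0.035, edgeR adjusted p = 0.497) and *miR-664-3p* by -0.26 (95% interval -0.88 to 0.37, edgeR adjusted p = 0.823). The upper range, with 1 WT and 3 Mir483Pat-KO fetuses, is too small for a comparison.

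The spread between fetuses was set beside that of the 40 tested miRs, members left out, nearest in level. *miR-1839-5p* was among the steadier ones, with an SD of 0.13 in log2 CPM within genotype, above 7 of its 40 neighbours (median 0.16). With each library left out in turn it was above 1 of 40 (SD 0.098, without Mir483Pat-KO replicate 2) to 13 of 40 (SD 0.14, without Mir483Pat-KO replicate 3), with 12 without WT replicate 3 or WT replicate 5 and 11 without Mir483Pat-KO replicate 5. *miR-320-3p* at 0.18 and *miR-484* at 0.17 were above 28 and 27 of 40 (medians 0.14 and 0.15). Without Mir483Pat-KO replicate 1 *miR-484* had an SD of 0.13, above 13 of 40. *miR-1839-3p* and *miR-664-3p* fell in the middle, each above 19 of 40, but *miR-1839-3p* was above 7 of 40 (SD 0.24) without Mir483Pat-KO replicate 3.

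The mirtrons spread most. *miR-877-3p* had an SD of 1.72, above all 40 neighbours (0.17 to 1.38), and *miR-702-3p* an SD of 1.27, above 39. *miR-877-5p*, at 0.93, was above 30 of 40 (median 0.76). Without the libraries at 0 the SD of *miR-877-3p* was 0.28, above 13 of 40, and that of *miR-877-5p* was 0.40, above 10. The SD of *miR-702-3p* was then 0.45 and above 36 of 40. In WT it ran from 14.6 to 26.8 CPM in 4 libraries and stood at 51.3 CPM in replicate 4. These positions describe the members, and no test was made of them.

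**Figure D4:**
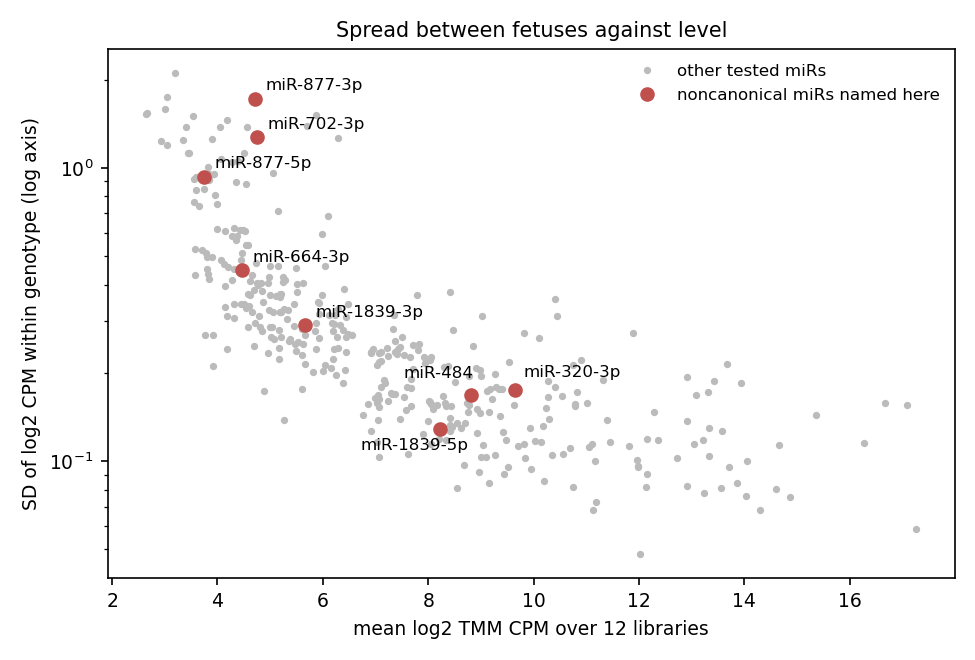
SD of log2 CPM between fetuses within genotype (y axis, log scale) against mean log2 CPM (x axis) for the 388 miRs tested in 12 libraries, with the 8 noncanonical miRs named. miR-877-3p (SD 1.72) and miR-702-3p (SD 1.27) lie above nearly all miRs of like level, while miR-1839-5p (SD 0.13) lies in the lower part of the cloud.

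For the members with at least 50 reads on average, the miR that kept the most constant ratio to each over the 12 libraries was sought among the others tested. *miR-1839-5p* and *miR-320-3p* both went most closely with *miR-30b-5p*, at an SD of the log2 difference of 0.072 and 0.098. For *miR-484* it was *let-7d-5p*, at 0.10. The median over all miRs compared was 0.28 to 0.34. Each miR named was picked as the smallest of 386 or 387 such SDs, so its place below the median follows from the choice.

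Other noncanonical miRs were read from a list of names that does not cover all of them. Those listed had few or no reads in fetal liver, apart from *miR-451a*, *miR-1983* and *miR-1981-5p*. The list held the capped *miR-344* family, the mirtrons *miR-1224*, *miR-1981*, *miR-1982* and *miR-3102*, the snoRNA-derived *miR-1291*, the tRNA-derived *miR-1983* and *miR-451a*, which Argonaute 2 cuts in place of Dicer. Of its 29 entries 21 had no read in any library and 4 were tested. None of the 4 was called (2.06% of all tested), 2 were higher and 2 lower, and their median log2 fold change was -0.019 against 0.0028 over all.

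*miR-451a* had a log2 fold change of 0.13 (95% interval -0.054 to 0.32). *miR-1983* averaged 520.1 CPM in WT and 535.5 CPM in Mir483Pat-KO, near the level of *miR-484*, and differed by 0.046 (95% interval -0.27 to 0.37). The mirtron *miR-1981-5p*, with 127.0 CPM in Mir483Pat-KO, had more reads than any of the mirtron members and differed by -0.084 (95% interval -0.31 to 0.14), and its partner *miR-1981-3p* by -0.14 (95% interval -1.18 to 0.90).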

How the data were processed

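Libraries were made by the authors from liver RNA (TruSeq Small RNA, run on a NovaSeq6000) and read with miRge. What they deposited are raw read counts for each mature miR, with no scaling and 1 column per fetus. The miR reference and the adapter trimming are not given in the sources used here. Library totals ran from 658665 to 1211160 counts, and for *miR-320-3p* the SD from counting alone would be 0.055 in log2 against 0.18 observed.

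miRs were kept by filterByExpr (minimum count 10), scaled by TMM and compared with edgeR 4.0.16 (estimateDisp, glmQLFit with legacy dispersion, glmQLFTest) in R 4.3.3. Genotype was the only term, and p-values were adjusted by Benjamini-Hochberg over 388 miRs. Standard errors and 95% intervals came from the F statistic. Arm ratios (pseudocount 0.5) were fitted with limma 3.58.1. Spread was the SD of log2 CPM (prior count 2) pooled within genotype. Alternatives included DESeq2 1.42.0 and limma-voom. The code was tested on simulated counts.

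The miRs named are the members, their opposite arms, *miR-483*, the marker miRs, the other noncanonical miRs (values for at most 4), the neighbours in level of 3 members and the miR of most constant ratio. Members and lists were chosen with earlier results of these data known. The labels number the replicates, and that these are separate fetuses is taken from the authors' methods. The smallest chi-square of counts between libraries of the same genotype was 5.53 per degree of freedom, so none was taken as deposited more than once. Positions are from GENCODE M21 and sequences from RefSeq, both of GRCm38, the build the labels name.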

Additional observations from a re-analysis of the deposited data

Results flagged for a closer look

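In 16 groups (8 miRs in each genotype), 3 held a library further from the rest than the limit for their size allows, where about 1 group in 20 is expected to by chance. *miR-877-5p* stood at 19.6 CPM in WT replicate 2, against 8.55 to 11.2 CPM in the other WT libraries. *miR-702-3p* was at 0 CPM in Mir483Pat-KO replicate 7, against 27.0 to 44.7 CPM in the other 6. *miR-1839-5p* reached 342.9 CPM in Mir483Pat-KO replicate 2, against 259.2 to 293.5 CPM.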

How the results depend on the processing

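No member changed direction under RLE scaling, and apart from *miR-484* none was called under any alternative that gives it an adjusted p. *miR-484* lay between -0.34 and 0.19 over 14 alternatives, and between -0.34 and -0.23 with each library left out in turn. The count of miRs called, 8 of 388, was 14 with library size alone (3 higher, 11 lower, against 4 and 4), 26 with DESeq2, 3 with the replicate block, 5 with the label-number range, 3 with the index covariate, 2 in the lower range alone, and 3 to 12 with each library left out. The count of hairpins with a changed arm ratio, 2 of 89, was 0 with a minimum of 5 reads, 6 with 20, 0 with the replicate block, 1 with the label-number range, 1 without trend, and 0 to 4 with each library left out. The cause was not tested.

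Small differences changed sign without being called. *miR-877-3p* went to -0.018 with library size alone, -0.0042 in the lower range and -0.074 without the libraries at 0. With limma-voom *miR-877-5p* was at -0.12 and *miR-702-3p* at -0.14. The index covariate gave 0.14 for *miR-320-3p*, 0.19 for *miR-484*, -0.0065 for *miR-877-5p*, 0.19 for *miR-1839-5p*, 0.028 for *miR-1839-3p* and 0.22 for *miR-664-3p*. With libraries left out in turn, *miR-877-3p* ran from -0.29 to 0.25, *miR-1839-3p* from -0.13 to 0.032, and the arm ratios of *Mir877* from -1.46 to 0.63 and of *Mir1839* from -0.16 to 0.028.

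With the replicate block *miR-877-5p* was at -0.061 and the arm ratio of *Mir1839* at 0.044. Fetuses that share a replicate number are different animals, and the correlations of their deviations ran from -0.24 to 0.23, so the numbers were not taken as pairs. A minimum of 10 reads in every library left no value for *miR-664-3p* and the 3 mirtron products, which had under 60 reads in each library, and DESeq2 gave these and *miR-1839-3p* no adjusted p. From counting alone the SD of log2 CPM would be 0.27 for *miR-877-3p* and 0.29 for *miR-702-3p*, against 1.72 and 1.27 observed. Without the libraries at 0 the observed SD was 0.28 and 0.45, and what put those libraries at 0 was not tested. For *miR-664-3p* the SD from counting would be 0.34 against 0.45 observed.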

Other observations

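The share of *miR-664-5p* among the reads of its hairpin had a median of 19.2% (0% to 20.8%) over 5 WT libraries and of 34.8% (0% to 42.1%) over 7 Mir483Pat-KO libraries. The difference in means, tested after the values were seen by an exact permutation of the libraries (two-sided), gave p = 0.0732. Each library held at most 10 reads of *miR-664-5p*, and the arm did not pass the filter.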
